A study of Caenorhabditis elegans with 3 samples.

Results

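The comparison set worms exposed to GO against worms exposed to rGO and covered 8978 of the 17118 genes measured, those whose brighter array of the 2 reached 6.79, the median of all gene values on the log2 scale. GO and rGO are the labels' abbreviations, and the published study is known to have dealt with graphene oxide and its reduced form, from which much of the oxygen has been removed. Every group consisted of whole wild-type hermaphrodites of the nematode Caenorhabditis elegans, taken as young adults 3 days old and kept for 24 h at 20 °C in a salt medium with no food. The groups were worms without material, worms with GO and worms with rGO. Each was read by 1 Affymetrix array, so no value has a replicate and no difference was tested. The sources used here give no concentration, and whether the doses of the materials were matched is not known. Levels are log2 expression values, and every difference is the GO level minus the rGO level.

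The outer layer of a nematode is a cuticle of collagens, cuticlins and zona pellucida domain proteins, made by the epidermis and rebuilt at each molt. Hedgehog-related and patched-related proteins, whose families are much enlarged in nematodes, are needed for molting and for shaping this matrix, and larval and adult cuticles use different collagens. Nematode sperm crawl rather than swim, by means of a cytoskeleton of major sperm protein, and in young hermaphrodites sperm are stored and used up as eggs are fertilised.

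The GO array was higher than the rGO array for genes of the molting and cuticle-shaping epidermis and lower for sperm genes and several collagens, and neuropeptide genes had small negative differences. At least 2-fold higher on the GO array were 502 genes (5.59%), and 335 genes (3.73%) were at least 2-fold lower. Either way, 837 genes (9.32%) differed at least 2-fold and 8141 by less. Differences of at least 4-fold were found for 95 genes on the higher side (1.06%) and 51 on the lower side (0.568%). The median difference of all 8978 genes was 0.00, the 5th and 95th percentiles were -0.87 and 1.06, and 935 genes (10.4%) had identical values on both arrays. For 202 of the 837 genes the dimmer array was below 6.24, the highest value among probe sets with no expected target in the sample, and the size of such a difference is not exact.

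Dim genes made up much of the higher side. When genes were split by mean level into 4 equal bins, 10.7% of the dimmest bin were higher with GO and 5.61% lower, whereas in the brightest bin 1.25% were higher and 2.81% lower. With the floor raised to the 75th percentile of all values, 183 of 4647 genes were higher and 179 lower. Genes higher with GO had median levels of 6.85 (control), 8.48 (GO) and 6.94 (rGO). Of these 502 genes, 423 had a control level nearer to the rGO level than to the GO level. Genes past 2-fold in either direction were picked by these GO and rGO values, so the control's place is not independent of that choice. Genes lower with GO had median levels of 8.93, 7.52 and 9.13 on the control, GO and rGO arrays, and 159 of the 335 had a control level nearer to the rGO level. Over all genes above the floor the control level was nearer to the rGO level in 38.1%. The 935 genes with identical GO and rGO values cannot count as nearer, so this share is lower than it would be without them.

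The arrays also differed in control transcripts. All 24 probe sets for poly-A transcripts, spiked into each RNA sample ahead of labelling, read lower with GO, at a median difference of -0.48, whereas 16 of 18 hybridisation controls were higher, with a median of 0.26. For worm control transcripts, the level at the 3′ end less that at the 5′ end had a median of 1.16 (rGO), 1.88 (control) and 2.57 (GO). This gap was wider on the GO array than on the rGO array for 8 of 8 worm pairs and 8 of 8 poly-A pairs. The poly-A probe sets and pairs read only the dap, lys, phe and thr transcripts, each repeatedly, so they are not separate measurements. For actin the 5′ end read 10.40 (GO) and 12.12 (rGO), while the 3′ ends were 13.42 and 13.44. The part of these gaps in the gene differences was not tested. Vitellogenins, the yolk proteins of adult hermaphrodites, were bright on each array, at medians of 13.70 (control), 13.24 (GO) and 13.24 (rGO). Gene by gene, their median difference from the control was 0.30 with GO and 0.30 with rGO, so the median levels do not show a fall.

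**Figure D1:**
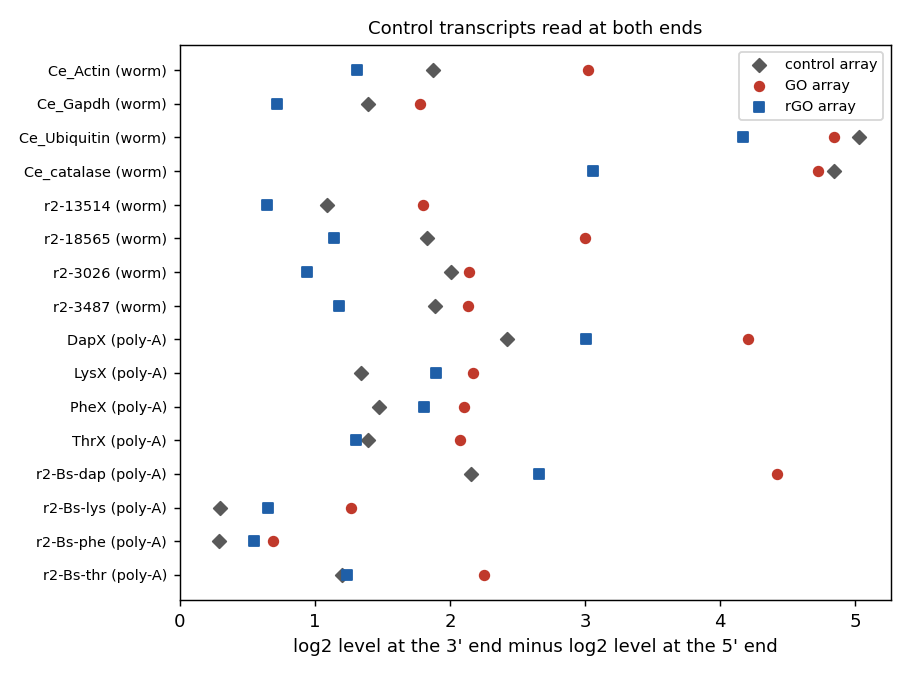
Gap from the 5′ to the 3′ end of control transcripts on each array, as a difference of log2 levels; each line of the plot is 1 pair of probe sets, read from worm transcripts or from poly-A transcripts added to the RNA. The GO array (red circles) lies to the right of the rGO array (blue squares) in every pair, although for some pairs an end was below 6.24.

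The genes with the largest negative differences were of few kinds. The C-type lectin gene clec-61 had levels of 5.01 (control), 5.34 (GO) and 9.69 (rGO), a difference of -4.36 and at least 10.9-fold. The collagen gene col-129 had levels of 13.48 (control) and 7.14 (GO), and its rGO level was 14.5-fold above the latter, a difference of -3.86. These genes differ in their place against the control, since clec-61 was bright on the rGO array only and col-129 was brightest on the control array. Of the 12 genes with the largest negative differences, the other 10 were the adult collagen gene col-19 and 9 major sperm protein genes, among them msp-152 (-3.63, 12.3-fold), msp-38 (-3.48, 11.1-fold) and msp-31 (-3.40, 10.6-fold).

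On the higher side, the chitinase-family gene cht-5 had levels of 5.95 (control), 10.78 (GO) and 7.63 (rGO), a difference of 3.15 and 8.90-fold. The cuticlin gene cut-3, a part of the cuticle, had levels of 5.50, 11.65 and 8.79, a difference of 2.86 and 7.28-fold. Both were lowest on the control array and highest on the GO array. The small heat shock protein gene hsp-12.1 had levels of 7.83, 9.66 and 6.84, a difference of 2.82 and 7.07-fold, and so was lowest on the rGO array. ZK1025.3 had the largest positive difference, 3.27, but its rGO level of 4.64 was below 6.24, so its fold was at least 3.19. The others were Y102A11A.5 (3.06, at least 3.94-fold), ZK675.4 (2.98, 7.90-fold), dbd-2 (2.93, 7.62-fold), Y37A1B.7 (2.92, at least 3.83-fold), F07H5.13 (2.86, 7.27-fold), bus-24 (2.83, at least 4.67-fold), F15B9.8 (2.82, 7.06-fold) and K01D12.9 (2.80, 6.98-fold). Genes known by a sequence name only were 37.8% of the genes higher with GO, 40.0% of those lower and 32.6% of all.

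**Figure D2:**
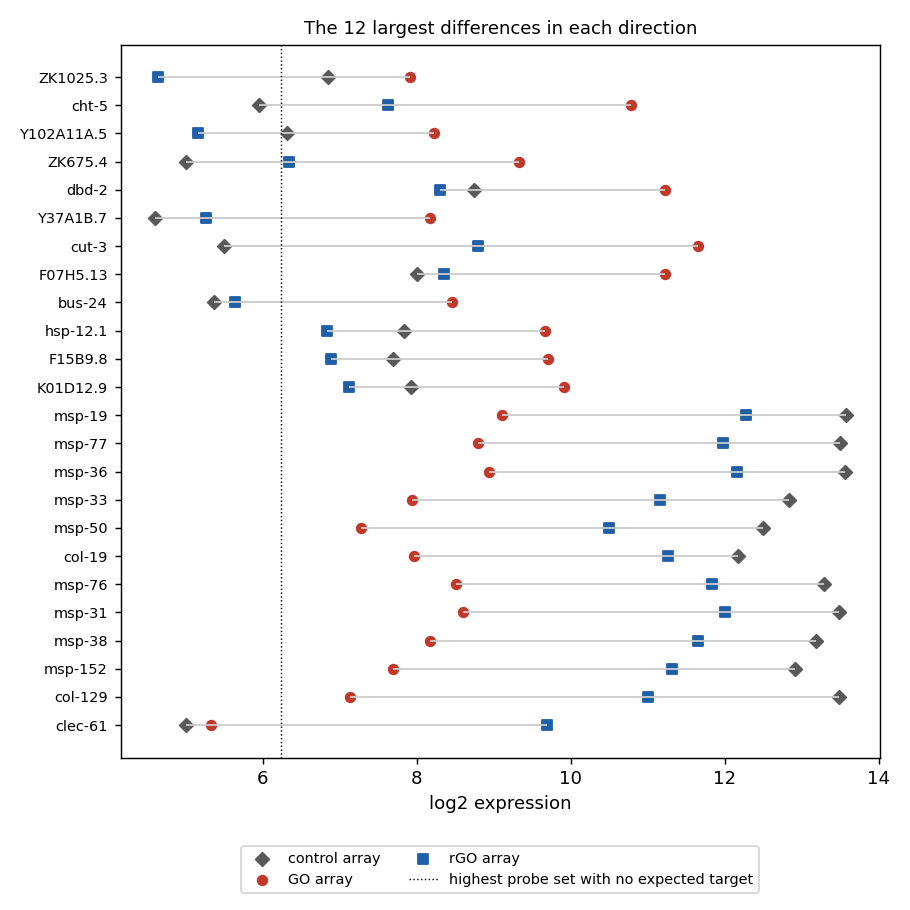
Log2 levels on the control (grey diamonds), GO (red circles) and rGO (blue squares) arrays for the 12 genes with the largest difference in each direction; the dotted line marks 6.24, the highest probe set with no expected target. The major sperm protein genes keep 1 order, control above rGO above GO, whereas clec-61 is bright on the rGO array only.

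Sperm genes formed the group with the most negative differences. All 23 major sperm protein genes passed the floor, and 22 of them were lower with GO by at least 2-fold, against 3.73% of all genes, while none was higher. Their median difference was -2.93, beside 0.00 over all genes. Their median levels were 13.13 (control), 8.32 (GO) and 11.65 (rGO), so that both exposed arrays lay below the control and the GO array lay lowest. For msp-152 the levels were 12.91 (control), 7.69 (GO) and 11.32 (rGO), and for msp-38 they were 13.18, 8.17 and 11.65. Only msp-32 was under 2-fold, at -0.88, with levels of 9.69, 7.33 and 8.21 and with 2 probe sets that differed by 1.31. The family is nearly identical in sequence and 22 of the 23 genes were read only by probe sets that share probes, so these are not separate measurements.

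The same direction held for other sperm families. Of 17 genes of other MSP-domain and sperm-specific families above the floor, 9 were lower and none was higher, all 17 differences were negative, and the median was -1.06. The MSP-domain gene msd-2 had levels of 12.17 (control), 7.59 (GO) and 10.01 (rGO), a difference of -2.42 and 5.37-fold. For msd-4 the levels were 11.91, 7.13 and 9.38, a difference of -2.25 and 4.76-fold. The nematode-specific nspd-4 (-1.87) and nspd-1 (-1.84) followed. Each of these genes was thus brightest on the control array and dimmest on the GO array. Without probe sets that share probes, 7 genes of these families remained above the floor, with a median of -0.64.

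Genes of sperm function that encode enzymes, channels and membrane proteins were mostly dim, with 12 of 40 above the floor. Of these 12, 2 were lower and none was higher, and the median was -0.38. The lower genes were gsp-3 (-1.95, at least 2.68-fold) and gsp-4 (-1.61), which encode protein phosphatases of sperm and are close copies of each other. In these whole-worm samples, fewer sperm and less RNA per sperm cannot be told apart.

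The other germline genes lay near 0. Of 33 oocyte and eggshell genes, 1 was higher and none was lower, with a median of 0.02. The exception was cav-1, a caveolin gene of the germline and embryo, with levels of 10.11 (control), 12.27 (GO) and 10.38 (rGO), a difference of 1.88. All 30 genes of meiotic chromosomes were under 2-fold, with a median of -0.04 and a range of -0.42 to 0.29. Of 32 Argonaute, small RNA and P granule genes only csr-1, an Argonaute of the germline, was past 2-fold, at -1.04, with levels of 8.51, 9.12 and 10.16. Of 35 cell cycle and DNA replication genes only the kinase gene cdk-4 was, at 1.15. The 5 vitellogenins ranged from -0.24 to 0.33 with a median of 0.04.

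**Figure D3:**
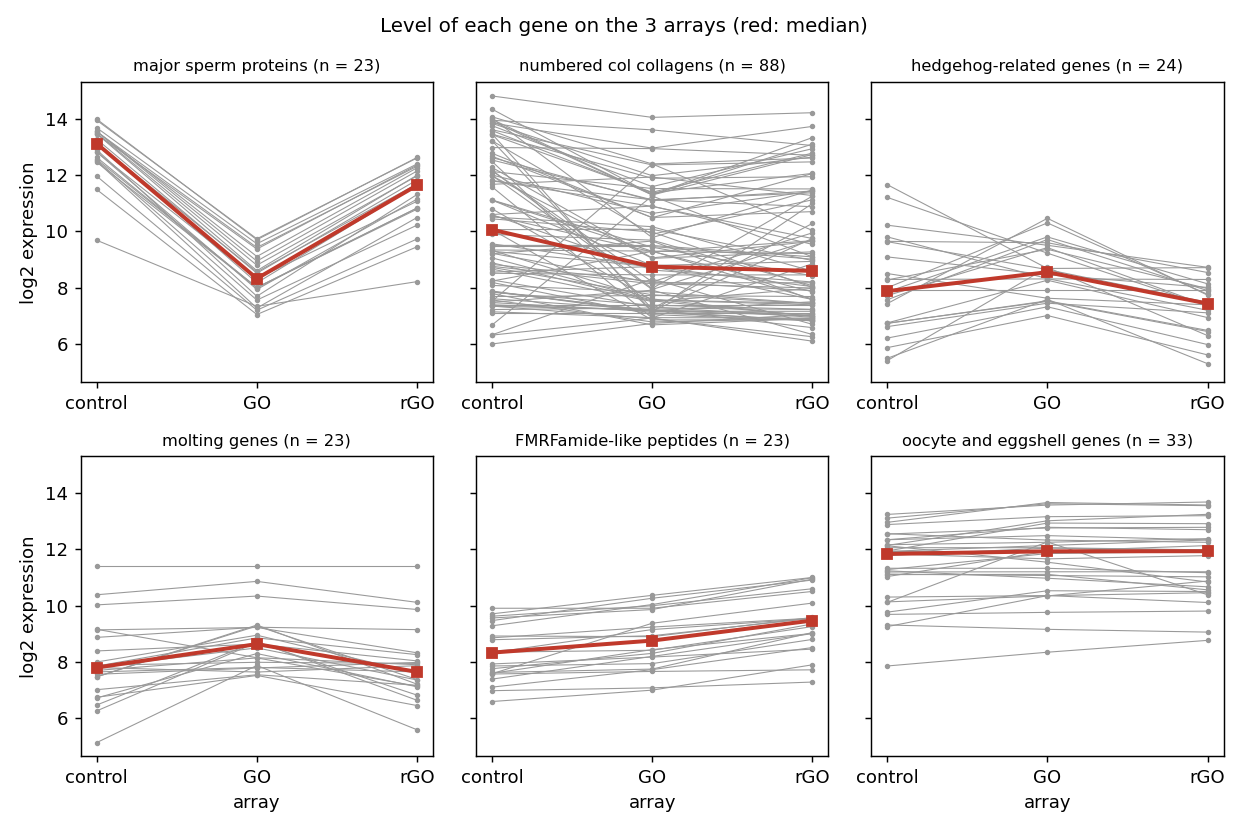
Log2 level of each gene on the control, GO and rGO arrays for 6 lists; thin grey lines are genes, red squares the median. Major sperm protein genes have medians of 13.13, 8.32 and 11.65, hedgehog-related genes 7.87, 8.55 and 7.43, and oocyte and eggshell genes 11.84, 11.93 and 11.93.

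Lists of the cuticle, molting and epidermis together held 218 of the 8978 genes above the floor, with a median of 0.38. Of these, 69 were higher with GO and 18 lower, beside 5.59% and 3.73% of all genes. The 69 were 13.7% of all genes higher with GO, and the 18 were 5.37% of all genes lower. The sperm lists held 52 of the 8978 genes, and 33 of them were lower, 9.85% of all genes lower with GO. All 5 furrow collagens, which form the rings of furrows around the body, were above the floor, and 3 were higher. These were dpy-7 (1.61), dpy-2 (1.54) and dpy-3 (1.44), and the median was 1.44. For dpy-7 the levels were 7.13 (control), 8.58 (GO) and 6.98 (rGO), so the GO array stood apart and the other arrays lay close to each other. The 2 probe sets of dpy-2 differed by 1.30, and the list's median was 0.53 over the 2 genes left without probe sets that share probes.

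Among 9 body-shape collagens, 2 were higher and 1 was lower, with a median of 0.22. The higher genes were dpy-14, with levels of 7.29 (control), 12.47 (GO) and 9.86 (rGO), a difference of 2.61 and 6.12-fold, and dpy-17, with levels of 8.95, 13.22 and 10.76, a difference of 2.46 and 5.50-fold. Both were brighter on each exposed array than on the control array. The lower gene was dpy-5, at 10.78, 6.34 and 7.92, a difference of -1.58, and it was dimmer on each exposed array than on the control array.

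The numbered col collagens split both ways. Of 88 above the floor, 15 were higher and 15 lower, and the median was 0.05. The adult-specific collagen gene col-19 had levels of 12.17 (control), 7.97 (GO) and 11.26 (rGO), a difference of -3.29 and 9.77-fold. For col-139 the levels were 13.23, 7.25 and 10.29, a difference of -3.04 and 8.23-fold. For col-81 they were 12.50, 7.16 and 9.75, a difference of -2.59. With col-129, these 4 genes had their highest level on the control array and their lowest on the GO array.

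The collagens on the other side included col-165, at 7.51 (control), 12.41 (GO) and 10.04 (rGO), a difference of 2.37, and col-74, at 6.66, 11.26 and 9.10, a difference of 2.17. Both had their lowest level on the control array. For col-48 the levels were 9.21, 9.66 and 7.57, a difference of 2.09, and for col-104 they were 10.45, 9.98 and 8.01, a difference of 1.97. The last 2 were thus near their control level on the GO array and below it on the rGO array.

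Markers of cuticle stage differed in part. The adult marker col-19 was lower with GO, as given above, whereas bli-1 and bli-2, collagens of the struts of the adult cuticle, were under the floor with both materials, with GO levels of 5.34 and 6.24 and nearly equal rGO levels of 5.31 and 6.21. Among markers of larval molts, dpy-7 (1.61), noah-1 (2.28) and mlt-10 (1.14) were higher with GO. The marker set also held col-7 (adult) and dpy-10 (larval molts), which are not described here, so neither side is given in full. For mlt-10 the difference was 0.66 with the brightest probe set alone. A part of developmental stage in these differences was not tested.

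**Figure D4:**
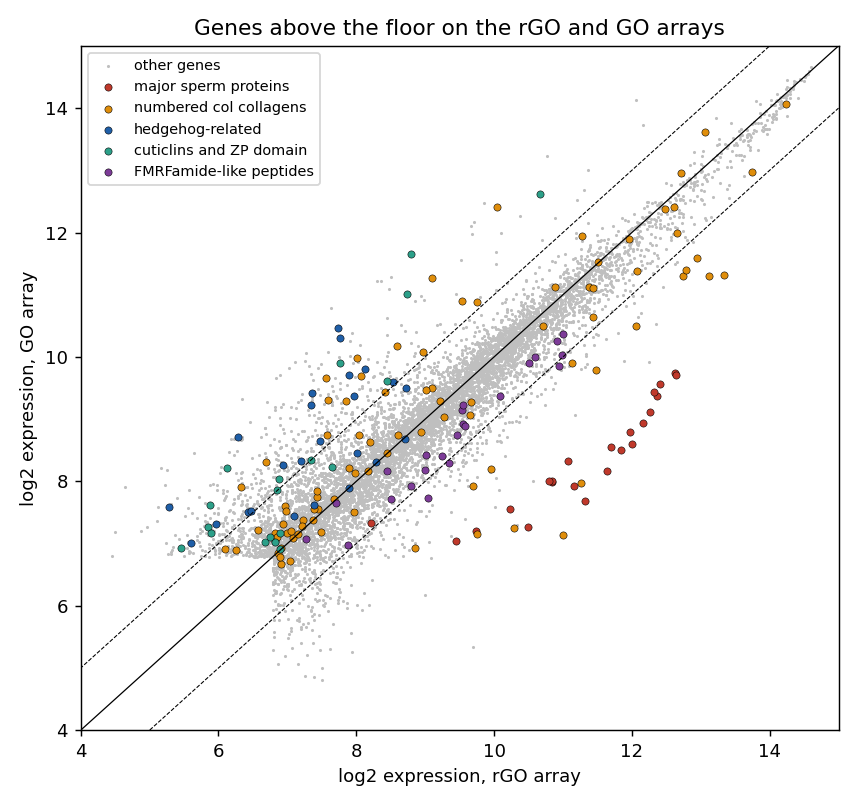
Log2 level on the GO array against the rGO array for the 8978 genes above the floor; the solid line marks equal levels and the dashed lines a difference of 1. Major sperm protein genes (red) lie below the lines, hedgehog-related genes (blue) and cuticlins (green) mostly on or above them, FMRFamide-like peptide genes (purple) just below equality, and collagens (orange) on both sides.

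Genes of the cuticle matrix other than collagens went one way. Of 19 cuticlins and zona pellucida domain genes above the floor, 12 were higher, against 5.59% of all genes, and none was lower. All 19 differences were positive, with a median of 1.15. Besides cut-3, noah-1 had levels of 7.65 (control), 11.02 (GO) and 8.74 (rGO), a difference of 2.28 and 4.86-fold. Its partner noah-2 had 7.32, 9.91 and 7.76, a difference of 2.15 and 4.44-fold, and both encode proteins of the apical matrix over the epidermis. For cutl-16 the rGO level of 6.13 was below 6.24, and the difference of 2.09 was at least 3.95-fold. The remaining 21 of the 40 measured genes were under the floor, and over all 40 the median was 0.43.

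Hedgehog-related genes, the secreted warthog, groundhog, ground-like and quahog proteins, gave 17 higher and none lower of 24 above the floor, with a median of 1.25. The warthog gene wrt-1 had levels of 7.43 (control), 10.47 (GO) and 7.73 (rGO), a difference of 2.74 and 6.67-fold. For the ground-like gene grl-15 they were 8.0, 10.31 and 7.76, a difference of 2.54 and 5.83-fold. In both genes the rGO and control levels lay close to each other and the GO level lay far above them. The ground-like gene grl-1 differed by 2.43 and hog-1 by 2.29, the latter with an rGO level of 5.29, below 6.24. The one negative difference was that of grd-3, at -0.03, with levels of 11.67, 8.68 and 8.71. The other 30 of 54 measured genes were under the floor, and over all 54 the median was 0.29.

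Of 18 patched-related genes, which encode membrane proteins with a sterol-sensing domain, 6 were higher and none was lower, with a median of 0.69. For ptr-4, which is needed for molting, the levels were 5.12 (control), 7.86 (GO) and 5.57 (rGO), a difference of 2.29. The next were ptr-25 (1.49) and ptr-6 (1.47). The control and rGO arrays were both below 6.24 for ptr-4, so its level there is only bounded. The list's median was 0.29 over all 26 genes measured, 0.37 without probe sets that share probes and 0.38 where both arrays exceeded 6.24.

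Molting genes followed, with 10 of 23 higher, none lower and a median of 0.75. The acn-1 gene, which encodes a relative of angiotensin-converting enzyme, had levels of 7.46 (control), 9.30 (GO) and 7.20 (rGO), a difference of 2.11. For mlt-9 the levels were 6.45, 8.72 and 6.62, a difference of 2.09, and for mlt-8 they were 7.46, 9.27 and 7.36, a difference of 1.91. In these genes the rGO level was close to the control level. Of 26 hypodermis and seam markers, a list that shares genes with those above, 12 were higher and none was lower, with a median of 0.82. Of 15 astacin metalloproteases, 2 were higher and 2 lower. The hatching enzyme gene hch-1 (2.44, 5.42-fold) and nas-7 (2.07) were the higher ones, and nas-37, a protease of cuticle shedding (-1.36), and nas-9 (-1.29) the lower ones. Among 10 heterochronic genes, which set the timing of larval stages, hbl-1 (1.38) and blmp-1 (1.17) were higher, but the probe sets of each disagreed, by 1.77 and 1.99.

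Basement membrane and adhesion genes were higher more often than lower, with 6 of 29 higher, none lower and a median of 0.60. The nidogen gene nid-1 had levels of 8.49 (control), 9.02 (GO) and 7.46 (rGO), a difference of 1.57. The laminin alpha gene epi-1 had 9.58, 9.69 and 8.26, a difference of 1.44. The integrin alpha gene pat-2 had 9.14, 9.47 and 8.31, a difference of 1.17. In these 3 genes the rGO array was below the control array and the GO array was not. The list was not uniform in place, since for lam-3, another laminin alpha gene (1.13), the control and rGO arrays were both below 6.24 and its 2 probe sets differed by 1.38.

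**Figure D5:**
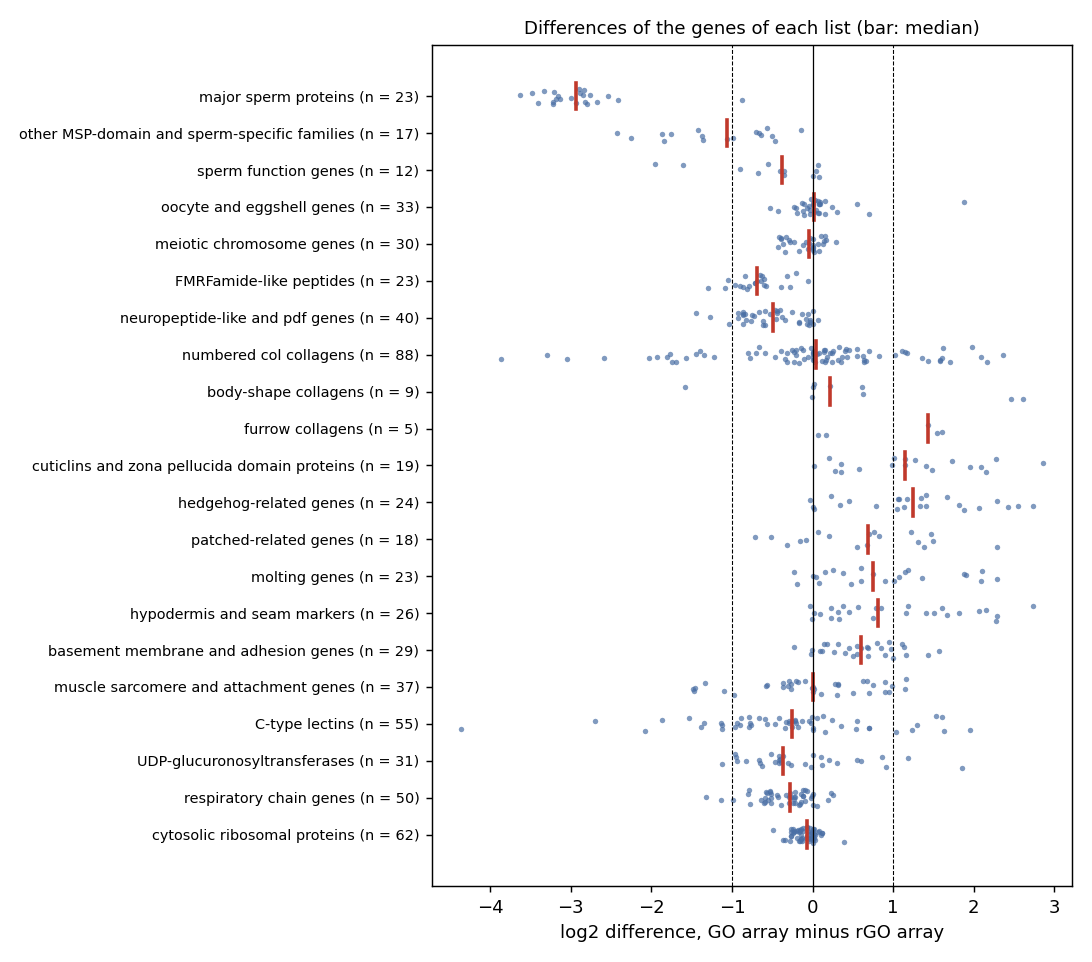
Difference of log2 levels, GO array minus rGO array, for each gene of 21 lists (blue points, scattered vertically at random) with the list's median (red bar); dashed lines mark 2-fold. Major sperm protein genes have a median of -2.93, hedgehog-related genes 1.25, and ribosomal protein genes -0.07, close to the 0.00 of all genes.

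Neuropeptide genes had small negative differences. All 23 FMRFamide-like peptide genes above the floor had negative differences, yet only 3 reached 2-fold, and the median was -0.68. For flp-3 the levels were 7.62 (control), 7.74 (GO) and 9.04 (rGO), a difference of -1.30. For flp-9 they were 9.56, 9.86 and 10.94, a difference of -1.08, and for flp-17 they were 7.75, 8.30 and 9.34, a difference of -1.05. In these genes the rGO array was above the others and the GO array lay nearer to the control.

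Of 40 neuropeptide-like and pdf genes, 3 were lower (7.5%) and none was higher, beside 3.73% and 5.59% of all genes. Their differences were negative for 37 and positive for 1, with a median of -0.49. The lower genes were nlp-2 (-1.44), nlp-1 (-1.27) and nlp-8 (-1.04). Enzymes that process the peptides had negative differences too. The carboxypeptidase gene egl-21 had levels of 9.51, 9.80 and 11.26, a difference of -1.46, and the proprotein convertase gene egl-3 had 9.27, 9.33 and 10.27, a difference of -0.93. The 26 synaptic release and transmitter genes, which include both, had a median of 0.18. Of these, egl-21 was the 1 gene at least 2-fold lower and the glutamate transporter gene eat-4 (1.01) the 1 gene higher. Each was 3.85% of the list, beside 3.73% of all genes lower and 5.59% higher. The 11 epidermal antimicrobial peptide genes, which carry nlp or cnc names but are made in the epidermis, had a median of 0.05, with cnc-3 higher (2.22).

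Ligand-gated ion channels held 1 large difference against the rest. The glutamate-gated chloride channel gene glc-1, a target of ivermectin, had levels of 7.84 (control), 9.07 (GO) and 11.17 (rGO), a difference of -2.10 and 4.29-fold. Of the other 19 genes above the floor, 5 were higher and none was lower. The highest was lgc-27 (1.81, 3.52-fold), followed by lgc-21 (1.48) and acr-8 (1.39). The list had a median of 0.40, but 73 of its 93 measured genes were under the floor. The median was 0.05 over all 93, 0.05 without probe sets that share probes and -0.14 over the 2 genes above the stricter floor. Of 16 sensory cilium genes above the floor, 6 were higher and none was lower, with a median of 0.72. Over all 54 genes measured the median was 0.28, and it was 0.32 without probe sets that share probes and 0.12 over the 2 genes above the stricter floor. The higher genes included dyf-4 (1.55), che-14 (1.5), osm-8 (1.36) and the kinesin-associated kap-1 (1.24). Of these, che-14 also acts in the epidermis and osm-8 is known from the epidermis and not from cilia.

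Muscle genes had a median of 0.00 over 37, with 5 lower (13.5%) and 2 higher (5.41%), beside 3.73% and 5.59% of all genes. The lower ones encode parts of the contractile filaments. The troponin T gene tnt-2 had levels of 10.99 (control), 9.84 (GO) and 11.32 (rGO), a difference of -1.48. For unc-54, the main body wall myosin, they were 11.96, 10.64 and 12.09, a difference of -1.45. The troponin I genes tni-3 (-1.47) and unc-27 (-1.33) and the calponin-related unc-87 (-1.10) were the others, and in tnt-2 and unc-54 the GO array was also below the control array. The higher genes were pat-2 and another troponin I gene, tni-1 (1.15), so troponin I genes lay on both sides.

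Most signalling genes lay under 2-fold, as did most of all genes, of which 5.59% were higher and 3.73% lower. Among 23 Wnt pathway genes, 3 were higher and none was lower, with a median of 0.32. The Wnt ligand genes cwn-1 (control 7.54, GO 9.33, rGO 7.72, a difference of 1.62) and cwn-2 (1.48) and the Frizzled receptor gene cfz-2 (1.43) were these 3. Thus the members past 2-fold were ligands and a receptor. All 21 MAP kinase genes were under 2-fold (median 0.04), as were all 19 genes from the insulin receptor to DAF-16 (median -0.18). Among 17 TGF-beta genes, the ligand gene unc-129 was higher (1.69) and sma-10, a membrane protein of the pathway, lower (-1.13). Of 15 insulin-like peptide genes, ins-34 (1.68) and ins-2 (1.11) were higher and ins-26 (-1.47) and ins-35 (-1.10) lower, 13.3% on each side. Of 35 homeobox genes, 5 were higher (14.3%) and none was lower, led by the PBX-family gene ceh-20 (1.15), with a median of 0.25.

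Immune gene families held differences in both directions, beside 5.59% of all genes higher and 3.73% lower. Of 220 C-type lectin genes, 55 were above the floor, with 7 higher (12.7%), 10 lower (18.2%) and a median of -0.26. After clec-61 the most negative were clec-82 (-2.69) and clec-219 (-2.08), both below 6.24 on the control and GO arrays. On the other side clec-196 had levels of 8.17 (control), 9.91 (GO) and 7.96 (rGO), a difference of 1.95. The lectins below 0 thus included genes that were bright on the rGO array only.

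Among 23 lysozymes and saposins, the lysozyme genes ilys-3 (-2.16) and lys-7 (-1.69) and the saposin-like spp-8 (-1.81) were lower, and the saposin-like spp-13 was higher (2.34). For lys-7 the levels were 9.97, 7.92 and 9.62, so the GO array lay below the other 2. Of 15 infection response genes, 3 were higher (20.0%) and none was lower, with a median of 0.32. The infection response gene irg-5 had 10.86, 9.02 and 7.44, a difference of 1.58, and irg-4 had 12.08, 9.23 and 7.65, a difference of 1.57. Both were brightest on the control array and dimmest on the rGO array, as was irg-8 (1.10). F-box, MATH and BTB genes had 3 higher (3.37%) and 9 lower (10.1%) of 89, with a median of -0.21.

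Lists of detoxification and stress varied around the shares of all genes, 5.59% higher and 3.73% lower. Of 31 UDP-glucuronosyltransferase genes, 2 were higher (6.45%) and 1 lower (3.23%), near those shares, with a median of -0.37. Of 24 glutathione S-transferases, none was higher and gstk-2 (-1.02) was lower. Of 25 cytochrome P450 genes outside the CYP-35 family, 3 were lower, led by cyp-37B1 (-1.44). The 3 CYP-35 genes above the floor were under 2-fold and of mixed sign, cyp-35A3 at 0.91, cyp-35C1 at 0.90 and cyp-35A2 at -0.36. Their median of 0.90 was 0.06 over all 10 genes measured and turned to -0.36 without probe sets that share probes. All 30 ABC transporters and all 21 antioxidant genes were under 2-fold, with medians of -0.02 and -0.29. Apart from hsp-12.1, the 10 small heat shock protein genes were under 2-fold, and among 11 chaperones of the HSP70 and HSP90 families only hsp-70 was past it, at -1.60 with a GO level of 6.15.

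In metabolism, 3 lipases (21.4%) lay on each side among 14, beside 5.59% of all genes higher and 3.73% lower. The lysosomal lipase genes lipl-2 (control 6.73, GO 8.06, rGO 10.03, a difference of -1.98), lipl-3 (-1.86) and lipl-5 (-1.37) were lower, and lips-3 (2.04), lips-6 (1.49) and lips-7 (1.49) were higher. The sides thus followed the lipl and lips names among the genes past 2-fold. Of 50 respiratory chain genes, 44 had negative differences, with a median of -0.28. Near the 3.73% of all genes, 2 genes of this list (4.0%) were at least 2-fold lower. These were the ATP synthase gene asb-2 (-1.33) and lpd-7 (-1.14), which the list took by its name and which acts in ribosome production rather than in the chain. All 62 ribosomal protein genes were under 2-fold (median -0.07). Of 33 proteasome genes, 1 was lower (3.03%), rpn-2 (-1.09, with probe sets 1.24 apart). Of 8 linker histone genes, hil-7 (1.57), his-24 (1.35) and hil-3 (1.05) were higher, 37.5% of the list. The lower gene was hil-1 (-1.24), 12.5% of the list.

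Over the 72 lists, 60 had a median within 0.5 of 0. The lists with a median of at least 1 were the furrow collagens, hedgehog-related genes and cuticlins, and those at or below -1 were both of sperm. Of the 837 genes past 2-fold, 269 were in at least 1 list. Gene classes, taken from the letters of the gene symbol, covered families with no list. Of 117 classes with at least 8 genes above the floor, dbd had the highest median, 1.49, with 9 of 12 genes higher and none lower. Its members dbd-8 (control 7.80, GO 9.63, rGO 7.38) and dbd-19 (9.12, 10.00 and 7.75) differed by 2.26 and 2.25. The grl, cutl, abu and ptr classes came next, with medians of 1.17, 1.08, 0.78 and 0.74. Above the floor were 11 of 30 grl, 10 of 28 cutl, 8 of 11 abu and 16 of 24 ptr genes. Class medians were not computed without the floor. With no floor, the overlapping lists of hedgehog-related genes, cuticlins and patched-related genes had medians of 0.29, 0.43 and 0.29. At the other end, msp, flp and srlf had medians of -2.93, -0.68 and -0.56.

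Some genes past 2-fold lay next to each other in the genome. In the order of a reference annotation, 62 of 499 genes higher with GO (12.4%) and 25 of 329 lower (7.60%) had a direct neighbour of the same direction. Of all 8871 genes above the floor placed in that order, 5.24% had a direct neighbour higher with GO and 3.05% one lower. The difference of these shares was not tested. The longest run, noticed after the values were seen, was that of lpr-3, lpr-6, lpr-5 and lpr-4, which encode lipocalin-related proteins. For lpr-3, known from the apical matrix, the levels were 8.13 (control), 10.62 (GO) and 8.44 (rGO), a difference of 2.18. The differences of lpr-5, lpr-6 and lpr-4 were 1.90, 1.77 and 1.09, so the run shared the direction and not the size. Other runs of 3 were skr-13, skr-9 and skr-8, of the SCF ubiquitin ligase, and gmap-1, gmap-3 and gmap-2, both higher, and acdh-8, msp-63 and msp-142, lower.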

How the data were processed

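Total RNA (300 ng per sample) of 3 samples was read on 1 Affymetrix array each. The deposited values are log2 expression for each probe set. The authors used GCOS, Affymetrix Expression Console and RMA, per the submitters' processing notes, which name no version. RMA equalises the arrays' distributions, so a general change of RNA per worm cannot be seen, and with few arrays it gives ties: 25.1% of probe sets were identical on the GO and rGO arrays. No depth applies to arrays, and their number limits the precision.

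Of 22625 probe sets, 20766 carry 1 gene in the platform annotation of 2016, and 20701 of these were matched to RefSeq for current symbols. Probe sets of a gene were averaged, and their differences had a median SD of 0.30 for genes above the floor, which describes probe sets and not worms. Genes entered as the opening states; the lowest value kept and the highest left out were both 6.79. The size rule was a log2 difference of 1, with 1.00 on both sides of it. Folds against an array below 6.24 are lower bounds. This limit is the brightest of 8 probe sets for yeast transcripts and the Trpn control (range 3.80 to 6.24); mouse probe sets, planned for this, are not on the array.

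Named genes are the 12 largest differences per direction, up to 4 per list or class and up to 4 set against them. The members and lists were chosen with earlier results of these data known, and list members were matched by gene symbol. Alternatives were the floor, the brightest probe set, leaving out probe sets that share probes, a second quantile normalisation, centring and a 4-fold rule. The counting was tested on simulated data. Python 3.11.15, numpy 2.4.6, pandas 2.3.3 and matplotlib 3.10.9 were used.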

Additional observations from a re-analysis of the deposited data

Results flagged for a closer look

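Differences of at least 2-fold also appeared in probe sets that entered no comparison because the annotation gives them several genes or none. Of the probe sets with several genes, 8 were at least 2-fold higher on the GO array than on the rGO and control arrays, and 8 were at least 2-fold higher on the rGO array than on the GO and control arrays. Of the probe sets with no gene, 7 were at least 2-fold higher on the GO array than on both other arrays and 1 was so on the rGO array. The share of genes that meet this rule is not given here, so these counts have no background beside them. Above the floor, 12 of 365 probe sets with several genes were higher with GO than with rGO and 48 lower, with a median of -0.12. Of 200 with no gene, 11 were higher and 3 lower. Among all genes above the floor, 5.59% were higher and 3.73% lower.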

How the results depend on the processing

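No paired analysis was possible because each group had 1 array. With a log2 difference of at least 2, 95 genes were higher and 51 lower. With the floor at the 75th percentile the counts were 183 and 179, the median of the other MSP-domain and sperm-specific families was -1.81, that of cuticlins 2.15 and that of hedgehog-related genes 1.82. With no floor the last 2 medians were 0.43 and 0.29. With the brightest probe set per gene the other MSP-domain families had -1.36, furrow collagens 0.89 and cuticlins 1.48. Without probe sets that share probes the other MSP-domain families had -0.64 and furrow collagens 0.53, and the major sperm proteins had no gene left. The stricter floor and this last setting leave fewer genes, and the cause of the other shifts was not tested. Both arrays above 6.24, an alternative chosen after seeing the data, left 374 higher and 261 lower genes of 8717. No list median of at least 1 either way, and no named gene at least 2-fold apart, changed sign under the alternatives run. Smaller ones did: the medians of 16 of the 72 lists changed sign in at least 1 alternative, as did the differences of 30 of 661 named genes. With the stricter floor astacins went from 0.38 to -0.91, ligand-gated channels from 0.40 to -0.14, TGF-beta genes from -0.27 to 0.13, sperm function genes from -0.38 to 0.04 and numbered collagens from 0.05 to -0.21. CYP-35 genes went from 0.90 to -0.36 without probe sets that share probes, lipases from -0.14 to 0.21 and the insulin receptor list from -0.18 to 0.01 with the brightest probe set, and phat genes from -0.31 to 0.39 with both arrays above 6.24. The basement membrane list had 1.0 with the brightest probe set, against 0.60. A second quantile normalisation moved the median of all genes by -0.03. The single array per exposure limits every value, and signals near 6.24 limit the sizes of dim genes.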
